A study of Mus musculus with 1094 samples.

Results

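Late basal progenitors of the mouse dorsal cortex, taken at the embryonic stage E18.5 (days after conception) and at birth (P0), were compared with early ones, taken at E12.5 and E14.5. The members were all deposited cells of those 4 stages labelled basal progenitor (BP) in which at least 1000 genes reached a value of 1 TPM, which counts transcripts relative to all transcripts of the cell and per length of the gene. They were 253 cells of the 1094 in the series, 117 early (72 at E12.5 and 45 at E14.5) and 136 late (61 at E18.5 and 75 at P0). A gene was called higher or lower only where both late stages lay on the same side of both early stages. The 79 kept BP cells of E16.5 served as a middle point between the phases.

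The series followed neural stem cells (NSC), basal progenitors and newborn neurons of the dorsal cerebral cortex over development by single-cell RNA sequencing on a microfluidic capture system. It holds 17 populations, each a cell class at 1 stage, of which the 5 BP and 4 NSC populations are used here. All animals carried the strain label C57Bl/6, the genotype label wild-type and the sex label female, and all cells the tissue label forebrain. Every BP cell was sorted as GFP-positive from Tbr2::GFP transgenic embryos or pups, a line that also gave the newborn neurons, and every NSC cell from Hes5::GFP animals. The population titled P0 carries an age label of 1 day. Tbr2 is the protein of Eomes, so GFP in this line marks cells in which that gene is or was active, because GFP can outlast the transcript. The labels name no animal, litter or sequencing run, so all cells of a population were treated as 1 library. The spread within a phase is that between its 2 stages, so it can hold change with age as well as technical differences.

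Basal progenitors, also called intermediate progenitors, are born from radial glia at the ventricle, move to the subventricular zone and divide there to give glutamatergic neurons. The cortex is built from the inside out: neurons of the deep layers, which project below the cortex, are born first, and neurons of the upper layers, which connect cortical areas, are born later. Fezf2 and Bcl11b are transcription factors of deep-layer neurons, whereas Cux1, Cux2, the POU factors Pou3f2 and Pou3f3, and the netrin receptor Unc5d are used as markers of the upper-layer lineage and of the late subventricular zone.

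The labelled cell type was checked against its markers. Eomes was at 10 TPM or more in 48 of 72 cells at E12.5 (66.7%, exact binomial 95% interval 54.6 to 77.3%), in 16 of 45 at E14.5 (35.6%, 21.9 to 51.2%), in 48 of 79 at E16.5 (60.8%), in 30 of 61 at E18.5 (49.2%) and in 32 of 75 at P0 (42.7%, 31.3 to 54.6%); these intervals cover counting error only. Neurod6, a gene of differentiating glutamatergic neurons, was at 10 TPM or more in 86.1 to 100% of the cells of every BP library. The libraries therefore hold cells with neuronal transcripts and without Eomes beside Eomes-positive ones, and they are called BP libraries here after their label. A kept cell had a median of 4608 to 5500 detected genes over the 5 libraries. Cells with 3 or more markers of another cell type at 10 TPM or more were 13 of 72 at E12.5, none of 45 at E14.5, 10 of 79 at E16.5, 1 of 61 at E18.5 and 1 of 75 at P0, and 11 of the 13 at E12.5 carried markers of Cajal-Retzius cells, early-born neurons of the cortical surface. The summed level of 9 Cajal-Retzius genes was 269 TPM at E12.5 and 9.94 at E14.5 against 32.6 at E18.5 and 64.7 at P0. The microglial genes C1qa, C1qb and Aif1, the endothelial genes Cldn5 and Cdh5 and the oligodendrocyte factors Olig2 and Sox10 were listed at 0 in every BP library. Although all cells are labelled female, Ddx3y or Eif2s3y, both on the Y chromosome, was at 10 TPM or more in 37 of 72 cells at E12.5, 32 of 45 at E14.5, 24 of 79 at E16.5, none of 61 at E18.5 and 33 of 75 at P0. Xist, the RNA of the inactive X chromosome, was at 10 TPM or more in no cell of E14.5 and in 48 of 61 cells of E18.5, so these 2 libraries stand apart in sex and the others are mixed. No 2 kept cells had identical values.

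For each library the mean TPM over its cells was taken, and a library value was log2(mean TPM + 1). In such means fewer cells of a type and less RNA per cell cannot be told apart. Of 13227 genes tested, 3361 were higher in both late libraries (25.4%) and 2075 were lower in both (15.7%), together 41.1%. With a gap of at least 1 log2 unit between the nearest late and the nearest early library, 473 genes were higher late (3.58%) and 373 lower (2.82%). The median change of all genes was 0.12 log2 units. The split of calls depended on the average: of the called genes 61.8% were higher late with the mean TPM and 39.6% with the mean of log2(TPM + 1) over cells (2456 higher, 3747 lower). In limma with Benjamini-Hochberg adjustment over all genes, which compared 2 libraries with 2, no gene passed 0.05; 1173 genes had an unadjusted p under 0.05 and the smallest adjusted p was 0.397. With the mean of log2 over cells, 5 genes passed: Sema3c, Pou3f2 and Zbtb20 higher late, and Ckb and Dner lower. Values below are therefore given library by library, in the order E12.5, E14.5, E16.5, E18.5 and P0 unless stated, and changes are late minus early differences of mean library values in log2 units with the limma standard error (SE).

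Among the 30 genes ranked by their gap, 15 in each direction, 2 in each direction are shown with the 250 bases before their RefSeq start in build GRCm38.p6, 5′ to 3′ on the strand of the gene. They are shown as examples of the start regions of genes that separate the phases. Dner and Ptpro rank 1 and 4 by gap on the lower side and Zbtb20 and Pou3f2 rank 5 and 7 on the higher side. They were chosen because RefSeq has a single window for the gene and GENCODE annotates no exon in it, so the stretches lie before the first exon or, for Zbtb20, before the exon of an internal start within the gene. The Zbtb20 window is chr16:43247034-43247283 (+), that of Pou3f2 chr4:22488367-22488616 (-), that of Dner chr1:84696222-84696471 (-) and that of Ptpro chr6:137252049-137252298 (+).
Zbtb20: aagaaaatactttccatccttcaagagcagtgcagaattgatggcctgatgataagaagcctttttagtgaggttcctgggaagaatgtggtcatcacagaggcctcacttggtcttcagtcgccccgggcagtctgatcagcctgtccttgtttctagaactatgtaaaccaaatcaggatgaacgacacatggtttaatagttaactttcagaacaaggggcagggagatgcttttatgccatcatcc
Pou3f2: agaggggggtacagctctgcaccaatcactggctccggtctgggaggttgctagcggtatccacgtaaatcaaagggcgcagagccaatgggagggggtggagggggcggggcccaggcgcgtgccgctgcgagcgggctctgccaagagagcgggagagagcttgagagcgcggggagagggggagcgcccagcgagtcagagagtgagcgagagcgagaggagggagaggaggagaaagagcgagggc
Dner: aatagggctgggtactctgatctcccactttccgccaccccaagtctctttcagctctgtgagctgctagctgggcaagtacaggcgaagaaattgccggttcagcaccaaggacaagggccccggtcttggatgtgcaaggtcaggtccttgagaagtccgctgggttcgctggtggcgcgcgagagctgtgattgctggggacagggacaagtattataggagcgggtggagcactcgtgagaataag
Ptpro: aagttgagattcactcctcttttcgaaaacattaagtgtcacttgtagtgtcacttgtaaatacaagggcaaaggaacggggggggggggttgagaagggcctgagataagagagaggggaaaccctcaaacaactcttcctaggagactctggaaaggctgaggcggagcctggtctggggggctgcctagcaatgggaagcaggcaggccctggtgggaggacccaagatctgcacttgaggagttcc
The letters CAGATG, a form of the E-box that proneural factors such as Neurog2 can bind, were searched on both strands and occur in none of these 4 windows. Over all 32851 RefSeq windows of the same length 14.4% hold them, against 5 of the 17 windows of the higher genes (29.4%) and 1 of the 20 windows of the lower genes. The match is a description of letters. The 4 windows range in G and C from 44.8% (Zbtb20) to 66.8% (Pou3f2).

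Among the 15 ranked genes of the late side were factors of transcription. Zbtb20, a zinc finger repressor with roles in late cortical neurogenesis and gliogenesis (chr16:42875881-43642602), had mean levels of 67.5, 36.6, 370, 663 and 625 TPM. Both late libraries lay far above both early ones, with E16.5 between. The change was 3.67 ± 0.36 (SE) with the mean TPM (limma, Benjamini-Hochberg adjusted p = 0.423) and 5.25 ± 0.52 with the mean of log2 over cells (adjusted p = 0.0232). Pou3f2, also called Brn2, a POU factor of upper-layer neurons (chr4:22482780-22488366), was at 80.0, 33.5, 158, 640 and 634 TPM. The late libraries were nearly equal and the groups did not overlap. The change was 3.59 ± 0.46 (limma adjusted p = 0.423), and 4.76 ± 0.47 over the mean of log2 (adjusted p = 0.0232). The share of cells with Pou3f2 at 10 TPM or more was 38.9%, 20.0%, 53.2%, 83.6% and 92.0%, so the gene was detected in more cells late as well as at a higher mean. Hdac9, a class IIa histone deacetylase, was at 0.273, 1.29, 22.2, 29.7 and 58.7 TPM and was found in few early cells, 1 of 72 and 1 of 45 at 10 TPM or more against 14 of 61 and 22 of 75 late. Tcf7l2, a transcription factor of Wnt signalling, was at 4.99, 3.93, 74.7, 37.0 and 47.3 TPM, highest at E16.5. Cd9, a tetraspanin of the cell surface, was at 21.8, 22.1, 136, 131 and 179 TPM, with E16.5 within the late range. These were the 2 of the 15 higher genes that had already reached the late range at E16.5.

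Sema3c, a secreted semaphorin that acts in axon guidance and neuronal migration (chr5:17574281-17730268), was at 9.36, 11.4, 68.7, 222 and 244 TPM. It had the widest gap of the genes higher late that met the ranking rule, and the libraries follow the order of age. The change was 4.36 ± 0.35 (limma adjusted p = 0.397), and 4.95 ± 0.37 over the mean of log2 (adjusted p = 0.0102). Cells at 10 TPM or more were 4 of 72 at E12.5 (5.56%, 1.53 to 13.6%) and 4 of 45 at E14.5 (8.89%, 2.48 to 21.2%), but 46 of 61 at E18.5 (75.4%, 62.7 to 85.5%) and 57 of 75 at P0 (76.0%, 64.7 to 85.1%). Unc5d (chr8:28646717-29219636) was at 7.93, 26.3, 75.6, 161 and 211 TPM, again ordered by age, with a change of 3.57 ± 0.62 (limma adjusted p = 0.433). Adam23, a surface protein of the ADAM family without protease activity, was at 4.16, 3.19, 13.7, 31.2 and 34.9 TPM. Of 26 tested guidance and migration genes 7 were higher late and 6 lower, beside 25.4% and 15.7% of all genes. The median change was 0.10 beside 0.12 over all genes, so the group as a whole did not lie apart. Its members with a gap of 1 or more were all on the late side: Sema3c, Unc5d, the repulsive semaphorin Sema3a (48.9, 19.9, 48.5, 107 and 173 TPM) and the Slit receptor Robo2 (70.6, 41.1, 73.9, 147 and 191 TPM). The semaphorin receptor Nrp1 (92.4, 101, 222, 187 and 301 TPM) and the ephrin receptor Epha4 (73.8, 90.9, 177, 231 and 148 TPM) were also higher in both late libraries. Efnb2, an ephrin ligand, was lower late (210, 243, 110, 105.02 and 139 TPM), as was Sema6a.

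The remaining higher genes of the ranked set serve other functions. Cdk6, a kinase that drives the G1 phase with D cyclins, was at 11.8, 26.0, 109, 202 and 169 TPM, with a change of 3.32 ± 0.47 (limma adjusted p = 0.423). Both late libraries exceeded both early ones by a wide margin, and the kinase gene of the same step, Cdk4, went the other way, with 1247 and 908 TPM early, 994 at E16.5, and 525 and 750 TPM late. Sh3rf3, an SH3 and RING domain protein, was at 0.489, 8.26, 52.6, 110 and 128 TPM. Frmd6, a FERM domain protein linked to Hippo signalling, was at 4.05, 2.27, 27.0, 82.4 and 42.9 TPM. Osbpl6, a sterol-binding protein, was at 2.13, 4.36, 6.26, 26.7 and 55.2 TPM. In each of these the groups were apart by more than 1 log2 unit. Fam210b, a mitochondrial protein, reached 62.8 and 108 TPM late against 1.53 and 11.4 early, Glt28d2 20.2 and 27.6 against 0.600 and 0.833, and Phxr4 22.8 and 27.7 against 1.72 and 2.61.

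**Figure D1:**
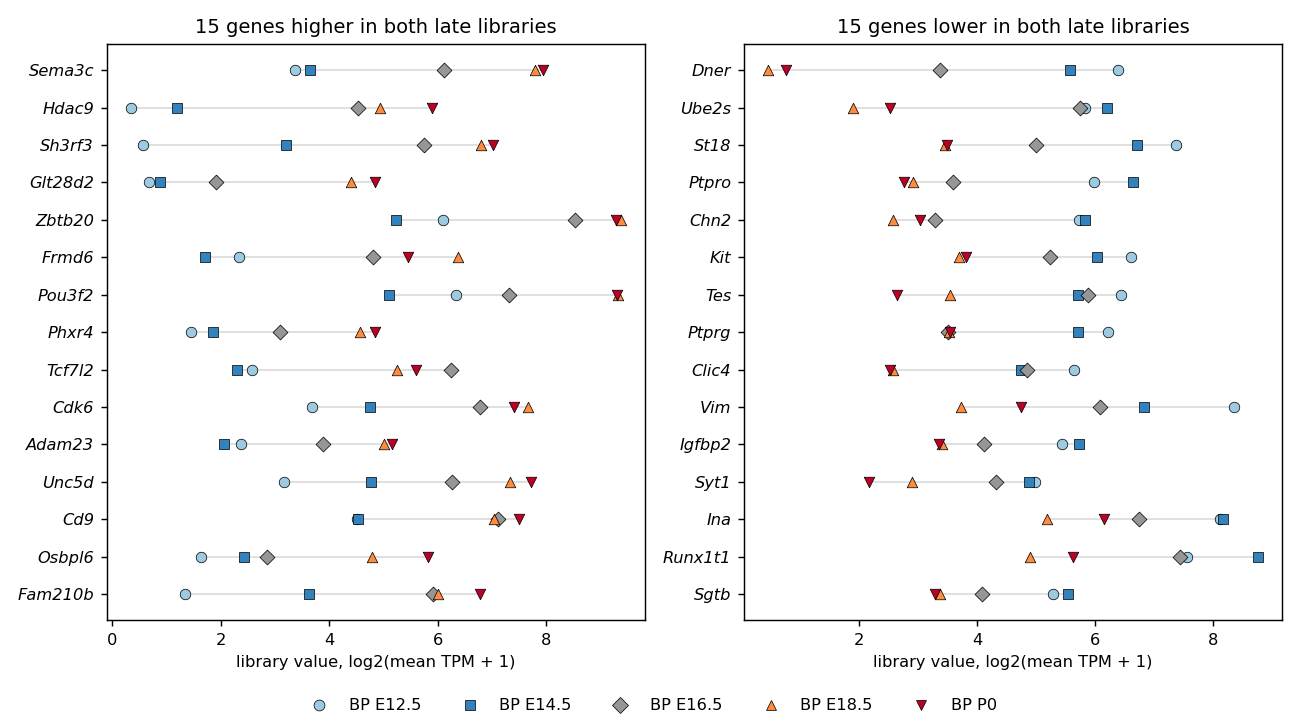
Library values, log2(mean TPM + 1), of the 30 ranked genes in the 5 BP libraries; each symbol is a library and the grey line spans its gene's range. Both late libraries (triangles) lie beyond both early ones (circle and square), as the ranking required, and for every gene they do so by 1 log2 unit or more. The E16.5 library (diamond) lies between the phases for 13 of the 15 higher and 12 of the 15 lower genes.

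On the early side the widest gap was that of Dner, a transmembrane protein with EGF repeats that can bind Notch (chr1:84369839-84696221). Its levels were 83.0, 46.3, 9.38, 0.378 and 0.693 TPM. The late libraries were close to the limit of detection, and no cell of 61 at E18.5 and 2 of 75 at P0 reached 10 TPM, against 26 of 72 and 17 of 45 early. A count of 0 of 61 allows a share of up to 4.92% when 3 cells are taken as the limit, and 5.87% as the upper exact binomial 95% limit. The change was -5.37 ± 0.62 (limma adjusted p = 0.423), and -2.40 ± 0.27 over the mean of log2 (adjusted p = 0.0486). St18, a zinc finger transcription factor of the Myt family, was at 164.7, 103, 30.9, 9.91 and 10.2 TPM, with a change of -3.57 ± 0.43 (limma adjusted p = 0.423). Runx1t1, a transcriptional corepressor, was at 187, 432, 171, 28.7 and 48.5 TPM. Both factors were lower in both late libraries, and for St18 the late libraries were nearly equal.

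The receptor phosphatase Ptpro was at 62.2, 98.9, 11.1, 6.53 and 5.80 TPM and its relative Ptprg at 73.5, 51.4, 10.3, 10.5 and 10.7 TPM. In both, the E16.5 library already stood near the late level. Kit, a receptor tyrosine kinase for stem cell factor, was at 96.2, 64.0, 36.5, 11.9 and 13.0 TPM, and Chn2, a Rac GTPase-activating protein that acts in axon guidance, at 51.9, 56.0, 8.71, 4.96 and 7.17 TPM. Vim, the intermediate filament of radial glia, was at 325, 113, 67.1, 12.3 and 25.8 TPM, with a change of -3.35 ± 0.66 (limma adjusted p = 0.433); at 10 TPM or more it was in 58.3% and 46.7% of early and in 9.84% and 10.7% of late cells. Ina, a neuronal intermediate filament, was at 277, 285, 106, 35.1 and 70.3 TPM. The vesicle calcium sensor Syt1 was at 30.4, 28.3, 19.1, 6.48 and 3.47 TPM. Of the filament genes ranked, Vim of radial glia and Ina of neurons were thus both lower late, which the ranking required. Ube2s, an enzyme that extends ubiquitin chains for the anaphase-promoting complex, was at 55.7, 72.1, 52.5, 2.74 and 4.71 TPM and kept its early level at E16.5, as did Tes, a focal adhesion protein (85.3, 51.5, 57.5, 10.7 and 5.27 TPM), and Clic4, an intracellular chloride channel protein (49.1, 25.7, 27.8, 4.97 and 4.77 TPM). Igfbp2, which binds insulin-like growth factors, and the cochaperone Sgtb were each at 38.1 to 52.0 TPM early and 8.75 to 9.58 TPM late. Ckb, brain creatine kinase, at 866, 705, 373, 236 and 355 TPM, differed by -1.43 in its mean and by -4.42 ± 0.41 in the mean of log2 over cells (limma adjusted p = 0.0232). Over the alternative settings the adjusted p of the 5 genes that passed on this scale reached 0.744.

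Deep-layer genes were lower late as a group. Of 12 tested, none was higher and 8 were lower in both late libraries, against 25.4% and 15.7% of all genes, and the median change was -1.76 beside 0.12 over all genes. Bcl11b, also called Ctip2 (chr12:107910403-108003602), was at 51.2, 119, 31.9, 13.3 and 12.7 TPM, a change of -2.50 ± 0.55 (limma adjusted p = 0.434). Fezf2 (chr14:12342094-12348189), a determinant of subcerebral projection neurons, was at 46.6, 117, 35.6, 8.41 and 14.49 TPM, a change of -2.64 ± 0.62 (limma adjusted p = 0.449). Both were highest at E14.5, and E16.5 lay between the phases. Sox5, which sets the order of deep-layer neuron production, was at 87.9, 255, 46.0, 28.9 and 52.7 TPM, Foxp2, a factor of corticothalamic neurons, at 126, 61.5, 77.0, 25.7 and 31.0 TPM, and Tbr1, of layer 6, at 95.6, 133, 56.4, 65.5 and 70.0 TPM. The Foxp2 call was lost with the mean of log2 over cells, where the change was -0.26, and in cells with few G2/M genes. Tbr1 differed least of the lower members, by -0.73. The groups of Tle4, Nr4a2, Zfpm2 and Crym overlapped.

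Upper-layer genes went the other way with exceptions. Of 12 tested, 7 were higher late and 2 lower, beside 25.4% and 15.7% of all genes, with a median change of 1.64. The lower count is near that background. Beside Pou3f2 and Unc5d, Pou3f3 was at 35.9, 37.5, 54.7, 119 and 138 TPM, Cux1 at 48.7, 26.2, 41.8, 174 and 134.9 TPM and Cux2 at 12.6, 34.3, 60.7, 89.9 and 89.3 TPM. The Cux1 level of E16.5 lay within the early range, whereas Cux2 was already higher then. Lhx2 and Rorb overlapped between the phases. The activity-dependent factor Mef2c (27.1, 126, 13.2, 1.64 and 26.2 TPM) and the plexin Plxnd1 (8.12, 16.9, 0.208, 2.47 and 0 TPM) were the lower members.

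The deep-layer and late genes were also counted cell by cell. Cells with Bcl11b or Fezf2 at 10 TPM or more and neither Unc5d nor Sema3c were 42 of 72 at E12.5 (58.3%, 46.1 to 69.8%), 32 of 45 at E14.5 (71.1%, 55.7 to 83.6%), 16 of 79 at E16.5 (20.3%), 1 of 61 at E18.5 (1.64%, 0.0415 to 8.80%) and 2 of 75 at P0 (2.67%, 0.325 to 9.30%). Cells with Unc5d or Sema3c and neither deep-layer gene were 3 of 72 (4.17%), 1 of 45 (2.22%), 25 of 79 (31.6%), 45 of 61 (73.8%, 60.9 to 84.2%) and 51 of 75 (68.0%, 56.2 to 78.3%). Cells with genes of both pairs were 11.1% at E12.5, 22.2% at E14.5, 30.4% at E16.5, 19.7% at E18.5 and 21.3% at P0, with the highest share at the middle point. Captures of 2 cells were not searched for or removed. Cells with Xist and a Y-linked gene, each at 10 TPM or more, were 2 of 72, none of 45, 5 of 79, none of 61 and 9 of 75, and the part of joint captures in the cells with genes of both pairs was not tested. The 4 genes were picked with their levels known, so the shares describe these libraries and carry no test.

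**Figure D2:**
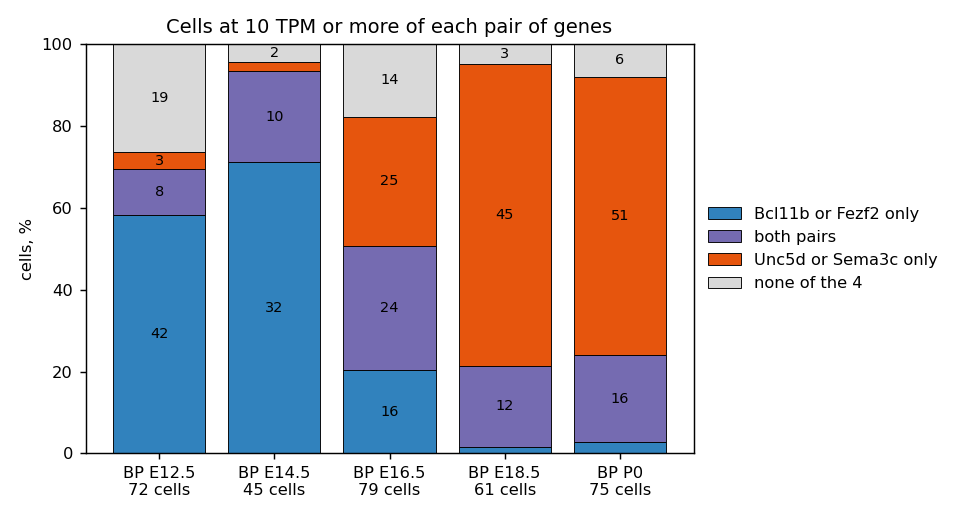
Share of the cells of each BP library, in %, that had at least 10 TPM of Bcl11b or Fezf2 alone, of genes of both pairs, of Unc5d or Sema3c alone, or of none of the 4; numbers in the bars are cells. Cells with a deep-layer gene alone make up 58.3 and 71.1% of the early libraries and 1.64 and 2.67% of the late ones, and at E16.5 each class holds 14 to 25 cells.

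The same genes were compared in cells with Eomes at 1 TPM or more, since the share of such cells was 79.2%, 55.6%, 81.0%, 75.4% and 54.7% over the libraries. In these cells Sema3c was at 11.8, 4.66, 67.0, 225 and 254 TPM, Pou3f2 at 78.9, 53.8, 134, 656 and 725 TPM, Bcl11b at 47.1, 93.9, 31.6, 16.8 and 18.0 TPM and Fezf2 at 41.2, 119, 37.7, 5.86 and 24.7 TPM. All 4 kept their side in both late libraries. The 2 libraries that stand apart in sex were also left out in turn, for the size of the change only. Leaving out a library cannot remove a call, and each time the other of the 2 stayed in. The part of sex in these changes was not tested. Without E14.5 the change was 4.50 for Sema3c, 2.98 for Pou3f2, -5.78 for Dner and -1.98 for Fezf2, and without E18.5 it was 4.43, 3.59, -5.22 and -2.28. Xist itself met the call, higher late with a gap over 1. All 30 ranked genes kept their call in Eomes cells and without the cells that carried markers of another cell type. They were picked for wide gaps in libraries that hold these same cells, so this is not an independent check. Of all 473 higher and 373 lower genes with a gap of 1, 303 and 229 kept that gap in Eomes cells.

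Genes of early cortical stem cells were lower late in the BP libraries too. Of 12 tested, none was higher and 8 were lower, beside 25.4% and 15.7% of all genes, with a median of -0.83. Crabp2, a retinoic acid carrier, was at 372 and 57.9 TPM early, at 0.378 TPM at E16.5 and listed at 0 in both late libraries; 43 of 72 cells at E12.5 and 7 of 45 at E14.5 had 10 TPM or more, against none of 61 and none of 75, which by the same limits allow up to 4.92 and 4.00%, or 5.87 and 4.80%. A value of 0 can be a failed estimate here, since Gapdh was under 1 TPM in some cells of 4 of the 5 libraries, so no fold is given. Its relative Crabp1 was at 11.2, 76.1, 15.46, 2.73 and 1.88 TPM, and Dmrt3, a patterning factor, at 8.32, 28.1, 5.01, 0.0144 and 0.184 TPM. Hmga2, a chromatin protein of young stem cells, was at 15.9, 15.0, 1.71, 3.90 and 0.153 TPM, and the RNA-binding protein Igf2bp1 at 28.1, 15.4, 12.1, 3.30 and 5.00 TPM. Igf2bp3, Lix1, Ccnd1 and Lin28b overlapped between the phases.

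Nuclear factor I and other factors of late progenitors were on the late side: 7 of 13 were higher and none lower, beside 25.4% and 15.7% of all genes, with a median of 0.95. Nfix was at 96.8, 449, 975, 856 and 1039 TPM, and the low early level rested mainly on E12.5, where 29.2% of cells had 10 TPM or more against 84.4% at E14.5. Its relatives Nfia (433, 788, 433, 570 and 394 TPM) and Nfib (1055, 2130, 1533, 2203 and 1996 TPM) overlapped between the phases, so the family did not move as a unit. Prdm16, a chromatin regulator of radial glia, was at 0.0297, 2.53, 4.16, 18.0 and 24.3 TPM, and Meis2, a homeodomain factor, at 83.0, 159, 195, 411 and 444 TPM.

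Of 15 tested genes of the basal progenitor list 4 were higher late and 5 lower, beside 25.4% and 15.7% of all genes, with a median of -0.36. Eomes was at 364, 130, 259, 172 and 119 TPM, a change of -0.60 ± 0.55 (limma adjusted p = 0.779), and the groups overlapped. Neurog2, the proneural factor upstream of Eomes, was lower in both late libraries, at 29.4, 11.0, 18.9, 2.60 and 8.08 TPM; this call was lost without the highest cell of each library and in cells with few G2/M genes, where its levels were 11.3, 2.81, 16.6, 2.18 and 5.77 TPM. Insm1, a zinc finger factor needed for basal progenitor formation, was higher, at 8.52, 26.6, 34.0, 34.3 and 32.9 TPM, but the libraries other than E12.5 lay close together, and the call was lost with the mean of log2. The antiproliferative gene Btg2 was at 212, 99.1, 298, 84.4 and 150 TPM and overlapped, and the small GTPase Rnd2, which promotes migration, was at 680, 725, 508, 482 and 559 TPM, lower late by -0.43 and overlapping with the mean of log2. Gadd45g, a stress and differentiation gene under proneural control, was at 234, 183, 104, 66.1 and 41.5 TPM, in order of age and with a gap over 1.

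Newborn-neuron, synaptic and tubulin genes were called lower late more often than higher. Of 14 newborn-neuron genes 3 were higher late and 5 lower, beside 25.4% and 15.7% of all genes. Their median of 0.06 lay beside 0.12 over all genes. Gap43, a growth cone protein, was at 314, 416, 257, 62.4 and 116 TPM, the sole member with a gap over 1. Nsg2, an endosomal protein of neurons, was at 437, 593, 770, 925 and 949 TPM, while Dcx, a microtubule protein of migrating neurons, was at 522, 516, 495, 483 and 588 TPM and Neurod6 at 1202, 2558, 1095, 1261 and 1463 TPM, both overlapping. Of 17 synaptic genes none was higher and 4 were lower, beside the same shares of all genes, Syt1 and the vesicular glutamate transporter Slc17a7 with a gap over 1. Among 12 tubulin genes 6 were lower and 1 higher, beside 15.7% and 25.4% of all genes. Tubb3 (5282 and 4263 TPM early, 2955 and 3552 late) overlapped after quantile normalization, and the near-identical Tuba1 genes, between which reads can be split, are uncertain.

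**Figure D3:**
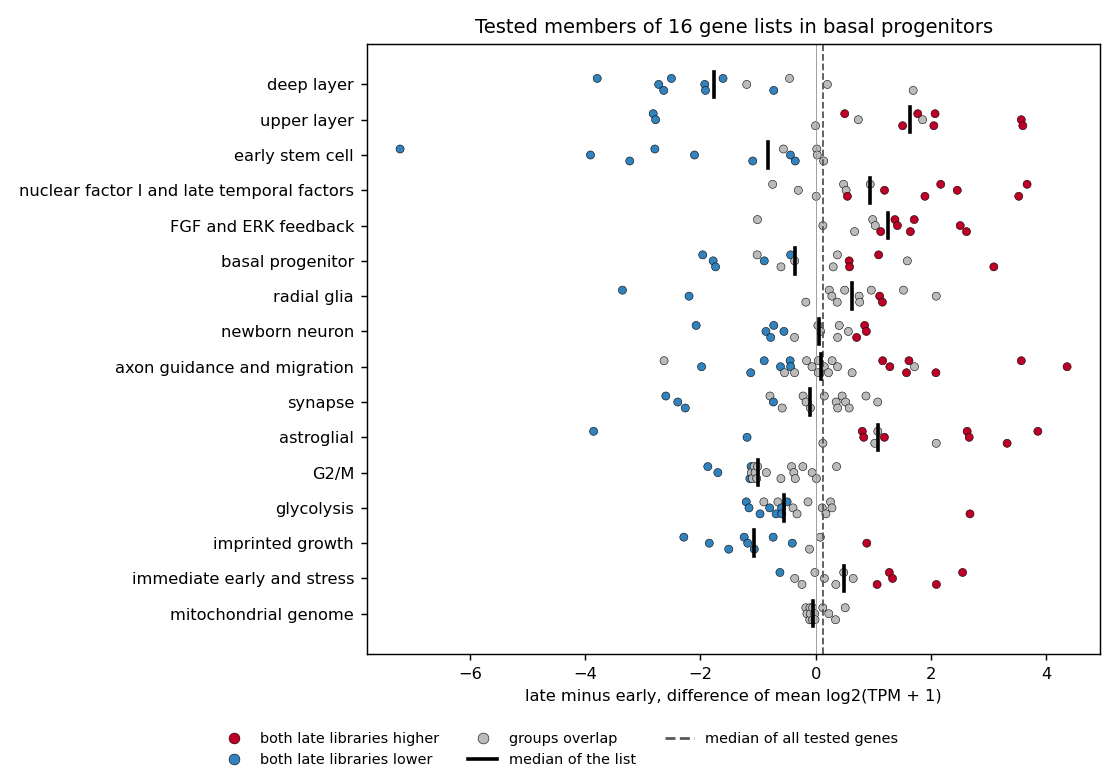
Late minus early difference of mean log2(TPM + 1) for each tested member (points) of 16 gene lists in the BP libraries; red and blue mark genes higher or lower in both late libraries, grey genes whose groups overlap, black bars list medians and the dashed line the median of all genes (0.12). The deep-layer list (median -1.76) has no red point and the list of nuclear factor I and late factors (0.95) no blue one.

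Of 12 genes of FGF signalling and its feedback 7 were higher late and none lower, beside 25.4% and 15.7% of all genes, with a median of 1.25. The receptor Fgfr1 was at 36.5, 30.8, 91.3, 138 and 91.3 TPM and the ERK feedback inhibitor Spry2 at 19.0, 39.5, 25.4, 104 and 74.3 TPM, both higher in both late libraries. The phosphatase Dusp6, a further feedback gene, was at 17.4, 45.7, 18.8, 50.1 and 79.6 TPM, with little distance between E14.5 and E18.5. Of 17 Wnt pathway genes 7 were higher, beside the same 25.4%, and 1 lower, the ligand Wnt7b, at 88.6, 80.1, 18.7, 38.3 and 16.8 TPM. The targets Axin2 and Lef1 overlapped. Of 13 immediate early and stress genes 5 were higher and 1 lower, beside 25.4% and 15.7% of all genes. Fos was at 30.6, 97.6, 485, 302 and 351 TPM and Egr1 at 57.0, 108, 967, 343 and 333 TPM, both highest at the middle point. Jun was at 25.7, 28.3, 74.7, 65.0 and 74.2 TPM, nearly equal at E16.5 and P0. These genes respond to cell handling as well as to signals, and the part of dissociation in their levels was not tested.

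Genes of the cell cycle were called in both directions. Cdkn2c, an inhibitor of Cdk4 and Cdk6 also called p18, was at 0.0341, 0, 0.177, 52.5 and 16.2 TPM, close to 0 in the early libraries and at E16.5. Its late level rested largely on the highest cells: the change of 4.90 was 1.56 without the highest cell of each library and 0.30 with the mean of log2 over cells, and in cells with few G2/M genes it was listed at 0 at P0 and the groups overlapped. Of 13 genes of D cyclins, their kinases and Cdk inhibitors 3 were higher and 3 lower, beside 25.4% and 15.7% of all genes. Cdkn1b, also called p27, was at 40.1, 65.8, 61.7, 105.3 and 101 TPM and Cdkn1c, also called p57, lower at 121, 181, 62.0, 110 and 34.8 TPM. Of 19 G2/M genes none was higher and 4 were lower, beside the same shares of all genes, with a median of -1.01. Their summed level was 1638 TPM at E12.5 against 409 at E14.5, 324 at E16.5, 290 at E18.5 and 580 at P0. E14.5 thus lay between the late libraries. Cells with at least 3 of these genes at 10 TPM or more were 28 of 72 (38.9%), 17 of 45 (37.8%), 14 of 79 (17.7%), 9 of 61 (14.8%) and 22 of 75 (29.3%, 19.4 to 41.0%), and the intervals of P0 and of the early libraries overlap. All 30 ranked genes, which were picked for wide gaps, kept their call when such cells were left out.

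Genes of glycolysis, oxidative phosphorylation and cholesterol synthesis were called lower late more often than higher, but those of serine and one-carbon metabolism, given below, were not. Of 18 glycolysis genes 8 were lower late and 1 higher, beside 15.7% and 25.4% of all genes, with a median of -0.54. Pkm, the last enzyme of the pathway, was at 1417, 889, 663, 688 and 479 TPM, Pgk1 at 218, 142, 140, 57.8 and 99.2 TPM and Tpi1 at 282, 176, 233, 134.9 and 72.9 TPM. The higher member was Hk1, the first enzyme, at 2.23, 3.58, 12.2, 17.2 and 32.3 TPM. Of 20 genes of oxidative phosphorylation 8 were lower and 1 higher, beside the same shares of all genes, with a smaller median of -0.16. None of the 13 genes of the mitochondrial genome was called. Of 17 genes of cholesterol synthesis 5 were lower and 1 higher, again beside 15.7% and 25.4% of all genes. The lower ones were led by Idi1 (143, 87.5, 7.36, 20.9 and 24.3 TPM).

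Imprinted growth genes were lower late in 8 of 11 tested, beside 15.7% of all genes, with 1 higher and a median of -1.07. Grb10, an adaptor that restrains insulin and growth factor receptors, was at 34.0, 20.4, 10.6, 3.24 and 6.40 TPM. Ndn, a growth suppressor of neurons, was at 629, 212, 207, 116 and 141 TPM, and the noncoding RNA Meg3 at 250, 136, 164, 88.8 and 28.6 TPM, although the Meg3 call was lost in Eomes cells. The higher member was Impact, a regulator of translation, at 168, 142, 208, 340 and 241 TPM. Astroglial genes were higher in 7 of 13 tested, beside 25.4% of all genes, and lower in 2, at low levels: Sparcl1 was at 3.76, 11.0, 10.0, 53.4 and 41.2 TPM and Bcan at 0.184, 0, 3.06, 22.7 and 9.47 TPM, whereas Aldh1l1 was listed at 0 in every BP library and the gap junction gene Gja1 was lower late (33.5, 6.58, 0.00614, 0 and 0.251 TPM).

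The other lists gave few calls or calls in both directions. Of 14 radial glia genes 2 were higher late, Sox2 and Fabp7, and 2 lower, Vim and Ddah1. The Fabp7 call was lost in cells with few G2/M genes, where it was at 90.2, 110.4, 251, 332 and 89.3 TPM. Hes5, the Notch target that marks stem cells, was listed at or under 0.419 TPM in every BP library. Of 11 Notch pathway genes 2 were higher and 2 lower, of 13 BMP and Id genes 3 and 1, and of 14 dorsal telencephalon and area factors 3 and 2. Of 18 genes of the G1/S transition and DNA replication 3 were higher and 4 lower, of 11 genes of serine and one-carbon metabolism 1 and none, and of 17 DNA methylation and Polycomb genes 2 and 4. Of 18 BAF chromatin remodelling subunits 3 were higher and 7 lower, of 19 neuronal RNA-binding proteins 3 and 4, and of 17 glutamate and GABA receptor subunits 2 and 3. Over all genes 25.4% were higher and 15.7% lower, and among these 10 lists the lower calls of BAF subunits stood furthest above that share. The medians of the lists ran from -0.31 (BAF) to 0.63 (radial glia).

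The E16.5 library was used to see where the middle stage lay. Of the 473 genes higher late with a gap of 1 or more, its level lay in the gap between the phases for 252 (53.3%), below the higher early library for 93 and above the lower late library for 128. Of the 373 lower genes it lay in the gap for 180 (48.3%), below the higher late library for 112 and above the lower early library for 81. A wide gap leaves more room for a level within it. Over all 3361 genes called higher it lay in the gap for 26.1%, below for 40.6% and above for 33.3%, and over all 2075 called lower for 23.2%, 43.5% and 33.3%, so there the gap was the least frequent case. Among the ranked and listed genes, Ube2s, Tes and Cux1 stood at or near the early level, and Fam210b, Ptprg, Ptpro and Cd9 at or near the late level.

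The same contrast was set beside the stem cells, in the order NSC E11.5, E13.5, E18.5 and P0, to see which changes the parent population also showed. Of the 473 genes higher late in BP, 30.7% were also higher in both late NSC libraries and 41 genes were lower, beside 20.2% higher and 16.9% lower among all tested genes. Of the 373 genes lower in BP, 91 were lower in NSC (24.4%) and 60 higher. Zbtb20 was higher late in NSC too (80.0, 36.0, 228 and 499 TPM), as were Cdk6 (32.6, 58.5, 685 and 355 TPM) and Cd9 (24.2, 48.3, 394 and 1021 TPM). Sema3c was low in NSC (0, 6.89, 7.20 and 1.59 TPM), and its groups overlapped there. Dner was at 4.20, 18.7, 26.0 and 5.53 TPM and Vim at 465, 746, 522 and 474 TPM in NSC, and both overlapped there. Astroglial genes were higher late in 11 of 13 in NSC, with a median of 3.76 against 1.08 in BP. Of 12 deep-layer genes 7 were lower late in NSC and 1 higher, with a median of -1.08 against -1.76 in BP. Of 12 early stem cell genes 10 were lower there and none higher, with a median of -2.09 against -0.83 in BP. Of 12 upper-layer genes 4 were higher there and 2 lower, with a median of 0.37 against 1.64 in BP. The difference between the populations was tested with a limma interaction contrast: no gene passed 0.05 after Benjamini-Hochberg adjustment, 884 had an unadjusted p under 0.05 and the smallest adjusted p was 0.529. For Sema3c the change was larger in BP by 3.65 ± 1.45 (adjusted p = 0.677) and for Dner lower by -5.76 ± 1.36 (adjusted p = 0.529), so no change is shown to be particular to basal progenitors.

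**Figure D4:**
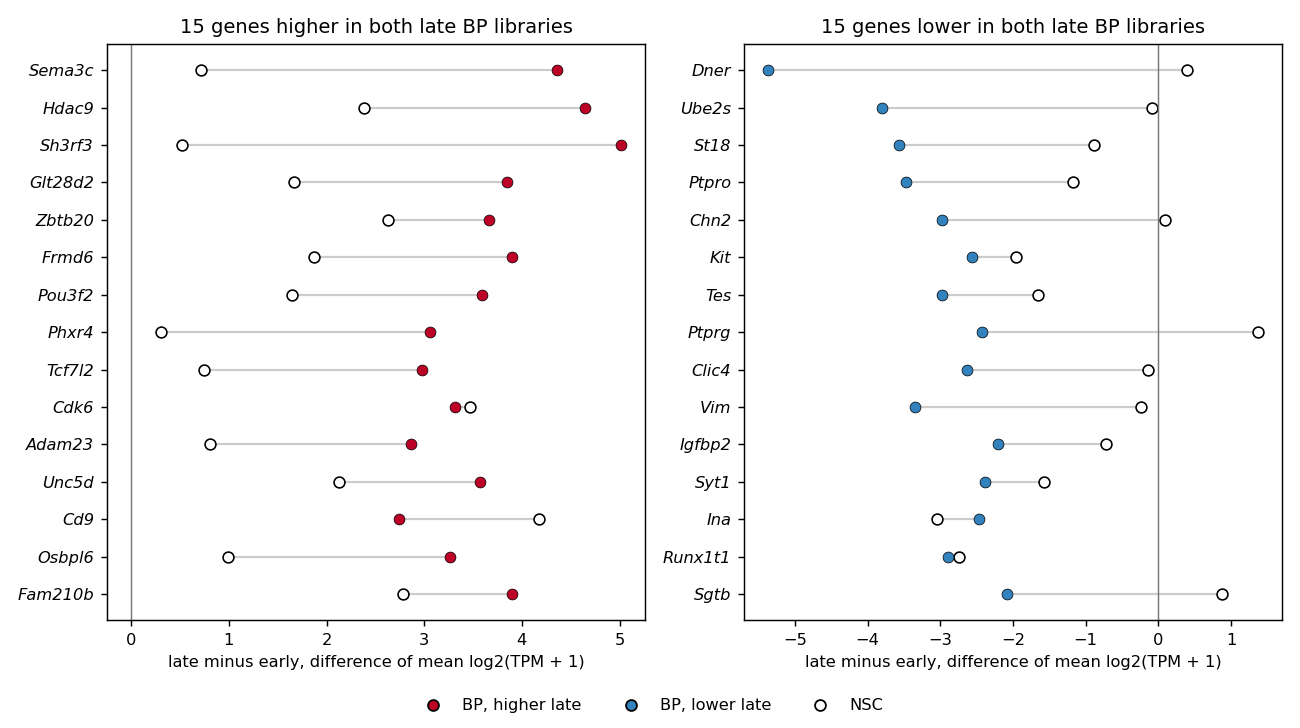
Late minus early difference of mean log2(TPM + 1) in BP (filled) and NSC (open) for the 30 ranked genes. The genes were ranked on the BP change and not on that of NSC, and most open points lie nearer 0; Cdk6 and Cd9 (3.47 and 4.17 in NSC) and Ina (-3.05) are the exceptions.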

How the data were processed

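Single cells of mouse dorsal cortex were sorted for GFP, captured on a microfluidic system and sequenced, per the labels' protocols. The deposited values are TPM per gene and cell; the submitters' processing notes name kallisto 0.43.0 and the builds GRCm38.p2 and mm10. A few near-empty cells whose deposited TPM are all whole numbers were recorded as a score; none passed the limit of 1000 genes. TPM keep no read depth, so the depth is unknown, no count model was used and precision rests on the number of cells and libraries. Cells that failed were 10 of 89 at BP E16.5, 1 of 62 at E18.5 and 1 of 76 at P0.

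Genes with a library mean of at least 1 TPM in at least 2 of the 5 BP libraries were tested (13227 of 23078). limma 3.58.1 in R 4.3.3 (trend, two-sided, Benjamini-Hochberg, threshold 0.05) was fitted to log2(mean TPM + 1), pseudocount 1, with early, middle and late as a factor; a difference on this scale understates the change of low genes. An exact permutation test of 2 against 2 cannot go below p = 0.333. The interaction with NSC used 9 libraries. The fit was tested on simulated data. Named genes were, per direction, the 15 with the widest gap among genes called with and without the highest cell of each library, with at least 20 TPM in both libraries of the higher phase and 1 TPM in at least 20% of their cells, unnamed models and markers of other cell types left out (1095 higher and 909 lower genes qualified), and members of gene lists with a gap of 1 or the largest changes. Further list members were named for their role after their values were seen. The members and lists were chosen with earlier results of these data known. Gene positions are from GENCODE M21 (22361 genes matched). Alternatives were other averages, pseudocounts, filters, normalization, cell subsets and leaving out each library.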

Additional observations from a re-analysis of the deposited data

How the results depend on the processing

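All 30 ranked genes kept their call with the mean of log2 over cells, after quantile normalization and in each other selection of cells. They were picked for wide gaps in the same libraries, which makes this likely. The ranking itself required the call without the highest cell. Another pseudocount or filter or leaving out a library cannot remove a call of these genes. Of 130 genes followed, called or not, 97 stayed on their side of the call, 20 lost a call in at least 1 and none reversed. Counts moved more. With the mean of log2 over cells the genes with a gap of 1 log2 unit numbered 54 higher (473 with the mean TPM), those lower in both late libraries 3747 (2075), and limma called 3 higher and 2 lower genes (none with the mean TPM). A pseudocount of 10 left 136 higher and 81 lower genes with a gap of 1, and a filter at 10 TPM, which tests fewer genes, 304 and 201. Without a filter the interaction with NSC gave 4 higher and 12 lower calls (none with it). In the leave-one-out fits, where a constraint is dropped so that calls can only be added, genes higher in both late libraries numbered 3361 to 5730, lower 2075 to 4265, and with a gap of 1, 473 to 1316 higher and 373 to 1226 lower; the highest came without P0 for both lower counts, without E18.5 for the first and without E12.5 for the third. In Eomes cells 622 genes were higher and 421 lower with a gap of 1, of which 303 and 229 were shared with all cells. No paired analysis was possible because replicate numbers in the labels number cells within a library. Each phase has 2 libraries, which limits the tests more than the number of cells; TPM do not show depth.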
